A study of Mus musculus with 2 samples.

Results

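The genes described here are 10 genes of major histocompatibility complex (MHC) class I antigen presentation, H2-K1, H2-D1, B2m, Tap1, Tap2, Tapbp, Psmb8, Psmb9, Psmb10 and Nlrc5. They were taken from the 32285 genes listed in single-cell RNA sequencing matrices of J558 allografts, as the rows that carry these 10 symbols, and all 10 were found. They were compared between a TAK-931-treated and a vehicle-treated allograft within tumor, myeloid, lymphoid, endothelial and stromal cells. In endothelial and stromal cells 9 of the 10 genes were more than 2 times higher in the TAK-931 library, where 7.76% and 11.0% of all genes were, and the heavy chain gene H2-D1 was 3.91 and 5.54 times higher. In tumor cells none of the 10 passed 2 times in either direction, which is near the background since 4.05% of all genes passed it upward and 2.99% downward, and the members lay between 0.695 and 1.32 times their vehicle level.

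MHC class I molecules show short peptides from inside the cell to CD8+ T cells. A heavy chain, here encoded by H2-K1 and H2-D1, pairs with beta-2-microglobulin (B2m), and the peptides reach it through the transporter of Tap1 and Tap2, to which tapasin (Tapbp) tethers the empty molecule. Psmb8, Psmb9 and Psmb10 encode the catalytic subunits that replace the constitutive ones in the immunoproteasome, and Nlrc5 encodes a transactivator of class I genes. Interferon gamma is the classical inducer of the whole set, and loss of class I on tumor cells is a known way in which tumors avoid CD8+ T cells.

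J558 is a BALB/c plasmacytoma line, a malignant counterpart of antibody-secreting plasma cells, and it was grown under the skin of female BALB/c mice with an intact immune system. The TAK-931 animal received this inhibitor of the replication kinase CDC7 by mouth in daily doses of 60 mg/kg over 6 days, and the control animal received the 0.5% methylcellulose vehicle. Each group had 1 library from 1 allograft, so animal and treatment cannot be told apart, no spread between animals could be measured, and no test between the groups was run. The mice were 4 weeks of age. All intervals are 95% intervals that cover counting error only.

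The vehicle library held 4565 barcodes with 144767193 unique molecular identifiers (UMIs, counts of single transcripts) and the TAK-931 library 6558 barcodes with 77369283 UMIs. Of these, 3441 and 3488 cells passed the filters, with medians of 40504 and 15097 UMIs, and 1 kept barcode sequence occurred in both libraries. Cells were assigned by marker genes to tumor (3012 vehicle and 111 TAK-931 cells), myeloid (248 and 2162), lymphoid (24 and 770), endothelial (90 and 218) and stromal (40 and 81) types, while 27 vehicle and 146 TAK-931 cells had no type. Every type held UMIs of all its own markers in both libraries, and the tumor cells carried the lambda light chain, J chain and Trap1a transcripts of J558 among their leading genes. In 4 of the 111 TAK-931 tumor cells kappa (Igkc) exceeded lambda (Iglc1 and Iglc3) light chain UMIs, against 0 of 3012 in the vehicle library, which allows a share of up to 0.0996%. The values below were computed from UMIs summed over the cells of a type and are given as CPM, the counts per 1000000 UMIs of that type.

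By the mouse annotation of build GRCm38, 7 of the 10 genes lie on chromosome 17, within or beside the MHC. These are Tapbp (chr17:33915899-33929292), H2-K1 (chr17:33996017-34000347), Psmb9 (chr17:34181987-34187764), Tap1 (chr17:34187553-34197225), Psmb8 (chr17:34197721-34201454), Tap2 (chr17:34203527-34216321) and H2-D1 (chr17:35262730-35267499). Psmb9 and Tap1 run in opposite directions, and their gene models overlap by 212 bases at their start sites. B2m lies at chr2:122147686-122153083, Nlrc5 at chr8:94434356-94527272 and Psmb10 at chr8:105935735-105938444. H2-K1 and H2-D1 are close copies of each other, but in the last 500 bases of their transcripts, where 3′ libraries are read, 2 of 451 windows of 50 bases were found in the other gene. BALB/c mice carry another H2 haplotype than the C57BL/6 reference and a further class I heavy chain, H2-L, of which no value is given here, and how its reads were assigned was not tested.

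Promoter sequences are shown because the members were higher together in endothelial and stromal cells. RefSeq promoters of build GRCm38.p6, 300 bases each from 250 before to 50 after the start site, were matched for 8 of the 10 genes by symbol, and Tap2 and Nlrc5 are named only. Letters were searched on both strands: GAANNGAAA, letters found in sites of interferon regulatory factors, GAANNNGAAA, the same with 1 more base between, GGGNNTTCC, letters of NF-kB sites, and CCAATCA, which holds the CCAAT box. They were chosen with the sequences in view, and a match is a description of letters. The stretches below read 5′ to 3′ on the strand of the gene, with the matches in capitals. For H2-K1 the stretch is chr17:34000408-34000487 on the minus strand, for H2-D1 chr17:35262914-35263053 on the plus strand, for B2m chr2:122147527-122147666 on the plus strand and for Tap1 chr17:34187316-34187535 on the plus strand.
H2-K1: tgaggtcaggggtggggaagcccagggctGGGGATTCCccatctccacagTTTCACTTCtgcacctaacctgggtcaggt
H2-D1: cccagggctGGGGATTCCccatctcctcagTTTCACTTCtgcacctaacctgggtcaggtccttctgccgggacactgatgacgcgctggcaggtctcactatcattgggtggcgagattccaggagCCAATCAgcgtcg
B2m: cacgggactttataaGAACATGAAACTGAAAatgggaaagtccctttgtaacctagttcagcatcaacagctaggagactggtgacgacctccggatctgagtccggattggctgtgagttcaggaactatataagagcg
Tap1: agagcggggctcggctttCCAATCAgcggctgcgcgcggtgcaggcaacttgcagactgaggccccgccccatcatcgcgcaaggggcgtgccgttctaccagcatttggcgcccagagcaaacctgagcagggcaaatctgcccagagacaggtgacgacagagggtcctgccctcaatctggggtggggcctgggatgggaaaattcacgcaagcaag
H2-K1 and H2-D1 shared 59 of 60 bases (98.3%) around GGGGATTCC and TTTCACTTC, the latter being GAANNGAAA read on the other strand. In B2m a pair of overlapping matches to GAANNNGAAA formed the run in capitals. The RefSeq promoter of Psmb9, whose start site lies inside the Psmb9 gene model given above, overlaps the Tap1 stretch on the other strand and also holds its CCAATCA. Of 32851 mouse promoters of the same length, 7.52% held GAANNGAAA, 7.87% GAANNNGAAA, 5.82% GGGNNTTCC and 7.82% CCAATCA. The 300 bases of H2-K1 also held CCAATCA, outside the stretch shown, and none of these letters was found in those of Tapbp, Psmb8 and Psmb10.

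Among the antigen-presenting molecules themselves, both heavy chains were higher in the TAK-931 library in all 5 types, with the smallest differences in tumor and lymphoid cells. H2-D1 stood at 1262 CPM in vehicle and 1385 CPM in TAK-931 tumor cells, with a log2 ratio of 0.13 (0.11 to 0.16). Over the alternative settings this tumor ratio ran from 0.02, without the 5% of barcodes with most UMIs, to 0.16 with thinning. It was 0.04 with free RNA subtracted. In stromal cells H2-D1 stood at 1131 and 6264 CPM, with a log2 ratio of 2.47 (2.38 to 2.56). In endothelial cells it stood at 1703 and 6661 CPM (1.97, 1.92 to 2.02). Stromal cells were thus slightly below tumor cells for H2-D1 in the vehicle allograft but 4.52 times above them in the TAK-931 allograft. In myeloid cells it stood at 2361 and 5409.9 CPM (1.20, 1.16 to 1.23) and in lymphoid cells at 2721 and 3492 CPM (0.36, 0.27 to 0.45).

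H2-K1 differed in the same direction in each type. It stood at 455 and 526 CPM in tumor cells (log2 ratio 0.21, 0.16 to 0.25) and at 1807 and 2006 CPM in lymphoid cells (0.15, 0.04 to 0.26). Over the alternative settings the tumor ratio ran from 0.08, with free RNA subtracted, to 0.31 with thinning. In myeloid cells H2-K1 stood at 1222 and 2349 CPM (0.94, 0.90 to 0.99), in endothelial cells at 1229 and 3991 CPM (1.70, 1.64 to 1.76) and in stromal cells at 663 and 3107 CPM (2.23, 2.12 to 2.34). Lymphoid cells held the highest H2-K1 level of the vehicle library, and endothelial cells that of the TAK-931 library. In the vehicle library the intervals of endothelial and myeloid cells overlapped, and the other neighbors in the order were apart.

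B2m, without which the heavy chain does not reach the surface, was lowest in tumor cells in both libraries. It stood at 801 and 1038 CPM there, a log2 ratio of 0.37 (0.34 to 0.41). In stromal cells B2m stood at 1545 and 6567 CPM (2.09, 2.01 to 2.16) and in endothelial cells at 1847 and 5543 CPM (1.58, 1.54 to 1.63). Only tumor cells were below stromal cells for B2m in the vehicle library, whereas stromal cells were highest in the TAK-931 library. Myeloid cells stood at 2533 and 4665 CPM (0.88, 0.85 to 0.91) and lymphoid cells at 2428 and 3123 CPM (0.36, 0.27 to 0.46).

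**Figure D1:**
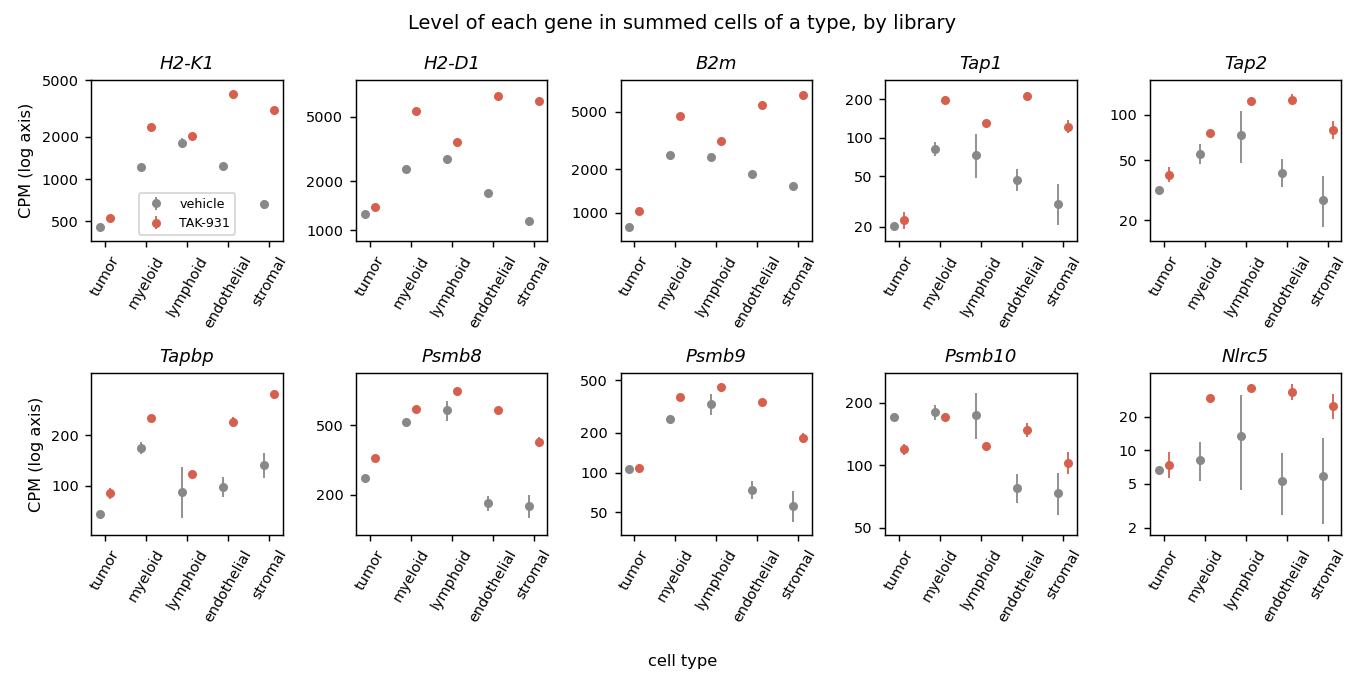
Level of each of the 10 genes in CPM (log axis, its own range in each panel) in the 5 cell types, for the vehicle (grey) and TAK-931 (red) library. Points are summed UMIs of all cells of a type and bars exact Poisson 95% intervals. In the TAK-931 library tumor cells are the lowest type for every gene but Psmb10. In the vehicle library stromal cells are lowest for H2-D1, Tap2, Psmb8, Psmb9 and Psmb10 and endothelial cells for Nlrc5. Of these vehicle places only that of H2-D1 has an interval apart from the next type.

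Of the peptide supply genes, Tap1, the transporter subunit named first, was past 2 times in myeloid, endothelial and stromal cells. Tap1 stood at 20.4 CPM in vehicle and 22.4 CPM in TAK-931 tumor cells, a log2 ratio of 0.14 whose interval of -0.09 to 0.36 included 0. In endothelial cells it stood at 46.7 and 213 CPM (log2 ratio 2.19, 1.89 to 2.51), which put it 9.51 times above the tumor cells of the same allograft. In the vehicle library that ratio was 2.30. In myeloid cells Tap1 stood at 81.4 and 196 CPM (1.27, 1.09 to 1.45), in stromal cells at 30.3 and 122 CPM (2.01, 1.47 to 2.59) and in lymphoid cells at 73.2 and 131 CPM (0.84, 0.29 to 1.44). The vehicle sums behind these ratios held 31 UMIs in stromal and 27 UMIs in lymphoid cells, and in the order of the types in the vehicle library each neighbor's interval overlapped the next, although myeloid cells were apart from endothelial, stromal and tumor cells.

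Tap2, the partner subunit, was past 2 times in endothelial and stromal cells only, among the 5 types compared. It stood at 41.5 and 126 CPM in endothelial cells (log2 ratio 1.60, 1.27 to 1.95) and at 27.4 and 79.8 CPM in stromal cells (1.54, 0.97 to 2.17). In tumor cells Tap2 stood at 31.8 and 40.3 CPM (0.34, 0.17 to 0.50). Without the 5% of barcodes with most UMIs, which left 30 TAK-931 tumor cells, the tumor ratio of Tap2 was -0.18. In myeloid cells it stood at 55.1 and 76.02 CPM (0.47, 0.24 to 0.69) and in lymphoid cells at 73.2 and 124 CPM (0.76, 0.22 to 1.37).

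Tapbp, the tapasin gene, had the highest ratio of the 10 genes in tumor cells, at 68.3 and 90.1 CPM (log2 ratio 0.40, 0.29 to 0.51), although the interval overlapped those of B2m, Tap1, Tap2, Psmb8 and Nlrc5. It stood at 98.2 and 240.0 CPM in endothelial (1.29, 1.07 to 1.51) and at 133 and 349 CPM in stromal cells (1.39, 1.13 to 1.66). In myeloid cells Tapbp stood at 168 and 251 CPM (0.58, 0.46 to 0.71). In lymphoid cells it stood at 92.2 and 118 CPM, and the interval of its ratio, -0.14 to 0.89, included 0. Each type was therefore higher in the TAK-931 library for Tapbp or could not be told apart from no difference at this depth.

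The 3 immunoproteasome subunits did not behave alike. Psmb9 stood at 74.4 and 342 CPM in endothelial cells (log2 ratio 2.20, 1.96 to 2.45) and at 55.7 and 183 CPM in stromal cells (1.71, 1.31 to 2.14). In tumor cells it stood at 106 and 109 CPM, a log2 ratio of 0.05 with an interval of -0.05 to 0.15. Psmb8 stood at 179 and 611 CPM in endothelial cells (1.77, 1.62 to 1.93), at 172 and 402 CPM in stromal cells (1.22, 0.99 to 1.46) and at 249 and 326 CPM in tumor cells (0.39, 0.33 to 0.45). Endothelial and stromal cells were thus below tumor cells for both subunits in the vehicle allograft and above them in the TAK-931 allograft. Lymphoid cells held the highest level of both subunits in each library, at 610 and 783 CPM for Psmb8 (0.36, 0.17 to 0.56) and 331 and 442 CPM for Psmb9 (0.42, 0.16 to 0.69), but for Psmb8 in the vehicle library their interval overlapped that of myeloid cells. In myeloid cells Psmb8 stood at 523 and 624 CPM (0.26, 0.18 to 0.33) and Psmb9 at 255 and 373 CPM (0.55, 0.44 to 0.65). The lymphoid ratio of Psmb9 was -0.12 when each cell was thinned to 4000 UMIs.

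Psmb10, the remaining subunit, had the lowest ratio of the 10 genes in each of the 5 types. It was lower in the TAK-931 library in tumor cells, at 171 and 119 CPM (log2 ratio -0.52, -0.62 to -0.43), and in lymphoid cells, at 174 and 123 CPM (-0.49, -0.85 to -0.11). In myeloid cells it stood at 180.2 and 171 CPM, with an interval of the ratio of -0.20 to 0.05. In endothelial cells it was higher, at 77.3 and 148 CPM (0.94, 0.69 to 1.20), a ratio near the limit of 1 that came to 1.01 with the stricter gate, 1.17 with median-ratio scaling and 1.15 with free RNA subtracted, and in stromal cells at 73.3 and 103 CPM (0.49, 0.11 to 0.88). Psmb10 was thereby the single member with ratios on both sides of 0 beyond counting error. The tumor difference turned to a log2 ratio of 0.29 without the 5% of barcodes with most UMIs, among the 30 TAK-931 tumor cells that were left.

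Nlrc5, the transactivator, was low in every type and had the highest ratio of the 10 genes in myeloid, lymphoid and endothelial cells. The interval of this ratio overlapped that of Tap1 in each of these types, and those of further members in lymphoid and endothelial cells. The vehicle sums of Nlrc5 were 26 UMIs in myeloid, 5 in lymphoid, 11 in endothelial and 6 in stromal cells, so the intervals are wide. Myeloid cells of the vehicle allograft held 8.13 CPM of Nlrc5 (5.31 to 11.9) and those of the TAK-931 allograft 29.8 CPM (28.02 to 31.6), which is a log2 ratio of 1.87 (1.31 to 2.49). Endothelial cells held 5.25 CPM (2.62 to 9.39) and 33.8 CPM (28.6 to 39.7), and the log2 ratio was 2.69 (1.81 to 3.72). These intervals of the level did not overlap between the libraries, and neither did those of stromal cells at 5.87 and 24.99 CPM (2.09, 0.89 to 3.59) or lymphoid cells at 13.6 and 36.4 CPM (1.43, 0.19 to 3.05). The lymphoid ratio was 0.79, under the limit of 1, when cells were thinned to 4000 UMIs. Tumor cells were resolved far better, with 892 and 59 UMIs, and stood at 6.67 and 7.43 CPM, a log2 ratio of 0.16 with an interval of -0.25 to 0.54.

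**Figure D2:**
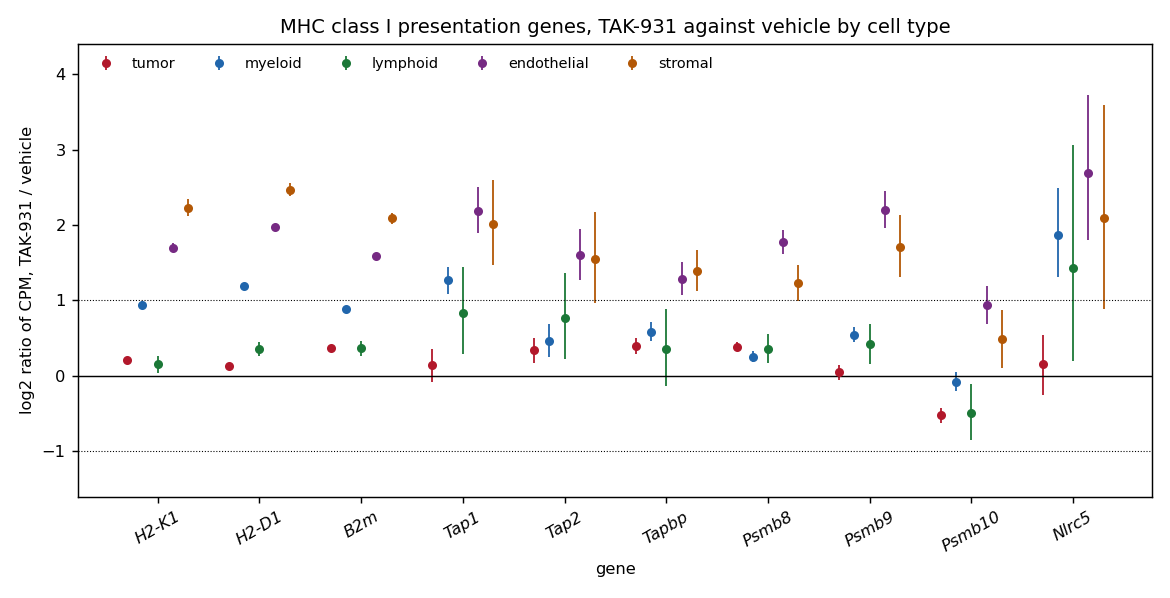
Log2 ratio of CPM, TAK-931 over vehicle, of the 10 genes in the 5 cell types. Bars are exact conditional binomial 95% intervals and dotted lines mark log2 ratios of 1 and -1. Endothelial and stromal points lie above 1 for every gene but Psmb10, and tumor points lie between -0.52 and 0.40.

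The list was then read against all genes of each comparison, counting a gene where at least 10 UMIs were expected in the smaller sum, which all 10 members met in every type. In tumor cells 0 of 10 members passed a log2 ratio of 1 or -1, where 4.05% of 10341 genes passed 1 and 2.99% passed -1. The median ratio of the members was 0.18 beside -0.0039 over all genes, and 33.5% of genes lay at or above the members' median. In myeloid cells 3 members (H2-D1, Tap1 and Nlrc5) passed 1, where 6.01% of 9413 genes passed 1 and 5.30% passed -1, and the medians were 0.73 and -0.03. In lymphoid cells 1 member (Nlrc5) passed 1, where 8.31% of 4334 genes passed 1 and 1.13% passed -1, and the medians were 0.36 and 0.08. The tumor and lymphoid counts were near the background of all genes.

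In endothelial cells 9 members passed a log2 ratio of 1, where 7.76% of 9989 genes passed 1 and 9.70% passed -1. The median ratio was 1.74 beside -0.15 over all genes. In stromal cells 9 members passed 1, where 11.0% of 7875 genes passed 1 and 5.31% passed -1, with medians of 1.86 and -0.05. No member passed -1 in any of the 5 types, and 4.25% of genes in endothelial and 4.50% in stromal cells lay at or above the members' median. The summed level of the 10 genes stood at 5303 and 17909 CPM in endothelial and at 3837 and 17202 CPM in stromal cells, against 3172 and 3663 CPM in tumor cells.

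**Figure D3:**
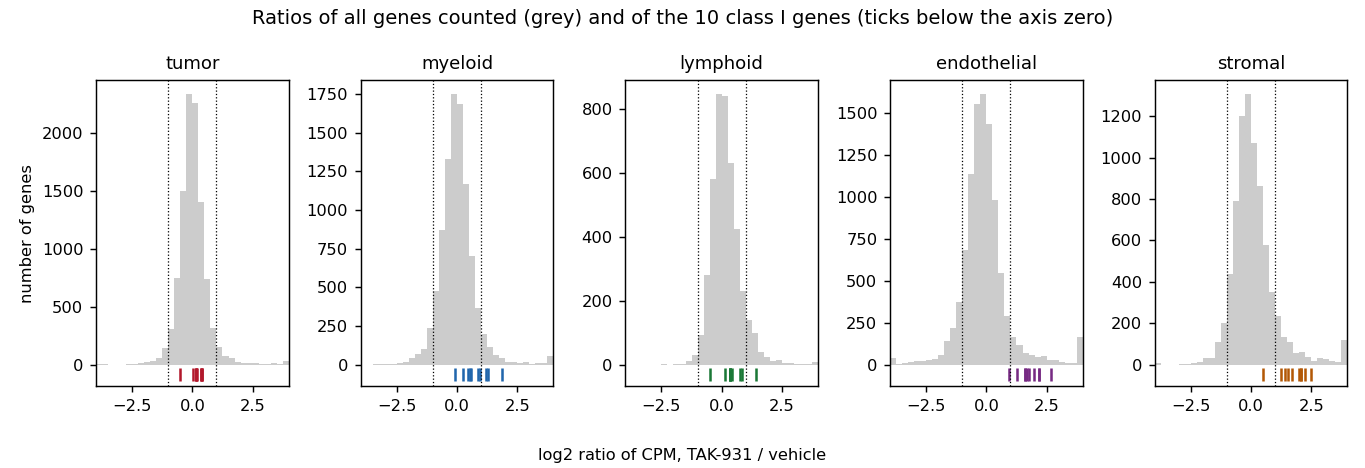
Number of genes by log2 ratio of CPM, TAK-931 over vehicle, in each cell type (grey bars, with genes past 4 or -4 in the end bars). Colored ticks mark the 10 class I genes and dotted lines log2 ratios of 1 and -1. The ticks lie between -0.52 and 0.40 in tumor cells and above 1 in endothelial and stromal cells, apart from Psmb10 at 0.94 and 0.49.

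Several other measures moved with these differences, and their part in the results was not tested. Clusters assigned to endothelial cells split by library. A cluster of 79 vehicle and 1 TAK-931 cells had 98.75% of its cells gated as endothelial. Another, of 7 and 240 cells, had 85.4%. The median mitochondrial share of the gated endothelial cells was 4.59% among vehicle and 7.50% among TAK-931 cells. With a mitochondrial limit of 10%, added after seeing the data, 85 and 158 endothelial cells were left and the median ratio of the members was 1.77. The median mitochondrial share was also higher in the TAK-931 library in stromal cells, at 3.30% and 4.84%, in tumor cells, at 5.29% and 6.81%, in lymphoid cells, at 3.86% and 4.95%, and in myeloid cells, at 4.58% and 4.98%, and with the 10% limit the median ratio of the members was 1.86 in stromal and 0.18 in tumor cells. All 15 myeloid markers together stood at 320.0 CPM in vehicle (13 of 15 with a UMI, Flt3 and Csf3r at 0) and 989 CPM in TAK-931 endothelial cells (14 of 15, Flt3 at 0). The 10 stromal markers stood at 2325 CPM in vehicle (10 of 10) and 1157 CPM in TAK-931 endothelial cells (9 of 10, Pdgfra at 0), and the 12 lymphoid markers at 15.7 CPM (4 of 12, Cd3d and Cd3g among those at 0) and 80.2 CPM (10 of 12, Klrb1c and Klre1 at 0). In stromal cells the myeloid markers stood at 175 CPM (11 of 15, Adgre1, Flt3, Wdfy4 and Csf3r at 0) and 897 CPM (15 of 15), against 16267 CPM in TAK-931 myeloid cells. Immunoglobulin transcripts (Jchain, Igha and Iglc1) of the tumor stood at 6537 and 336 CPM in endothelial and at 1189 and 248 CPM in stromal cells, and after subtraction of estimated free RNA the median ratio was 1.76 and 1.79. That estimate of free RNA was 10.4% and 10.9% of the UMIs of endothelial cells but 5.58% and 10.48% of those of stromal cells. The stricter gate, which allowed at most 1 marker of any other type, left the median ratio at 1.75 in endothelial and 1.68 in stromal cells.

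In tumor cells all 15 myeloid markers together stood at 87.6 and 261 CPM and the 12 lymphoid markers at 2.65 and 149 CPM, with Klrb1c at 0 in the TAK-931 cells. These stood beside small ratios of the members, and the members' median was 0.16 without the 4 kappa cells and 0.06 after subtraction of estimated free RNA. The residual tumor cells were also the deeper ones, at a median of 72450 against 42441.5 UMIs.

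In myeloid cells the 10 stromal markers together stood at 8.45 CPM in vehicle (6 of 10 with a UMI, Dcn, Lum, Pdgfra and Pdgfrb at 0) and 199.8 CPM in TAK-931 cells (10 of 10), the 12 lymphoid markers at 3.13 CPM (5 of 12, Cd3d and Cd3g among those at 0) and 79.6 CPM (12 of 12), and the immunoglobulin transcripts at 3155 and 599.9 CPM. In lymphoid cells the myeloid markers stood at 317 CPM (13 of 15, Wdfy4 and Csf3r at 0) and 587 CPM (15 of 15) and the immunoglobulin transcripts at 811 and 1109 CPM. The part of these in the results was not tested, and with the stricter gate the median of the members was 0.72 in myeloid and 0.40 in lymphoid cells.

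Cell by cell, the same picture was seen after each cell was thinned to 4000 UMIs, a description since cells of 1 library are not replicates. The summed UMIs of the 10 genes in vehicle endothelial cells ran from 4 through a median of 21 to 79, and in TAK-931 endothelial cells from 18 through 69 to 153. In stromal cells they ran from 3 through 15 to 38 and from 13 through 73 to 145. Of the TAK-931 cells, 97.7% of endothelial and 97.5% of stromal cells lay above the third quartile of the vehicle cells of their type, so the difference in the sum was spread over nearly all cells. The share was 86.9% for myeloid cells (medians 27 and 53) and 55.5% for lymphoid cells (35.5 and 44).

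Tumor cells ran from 0 through a median of 12 to 69 among vehicle cells and from 4 through 14 to 46 among TAK-931 cells. Of the 111 TAK-931 tumor cells, 30.6% lay above the third quartile of the vehicle cells. None of the 111 reached the first quartile of the TAK-931 endothelial cells (55 UMIs) or stromal cells (54 UMIs), 1 reached that of the myeloid cells (44 UMIs) and 2 that of the lymphoid cells (36 UMIs). In the vehicle allograft 72.01% of tumor cells reached the first quartile of the stromal, 46.2% that of the endothelial, 12.5% that of the myeloid and 2.79% that of the lymphoid cells, so the shares of the libraries were far apart for stromal and endothelial cells and close for lymphoid cells.

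**Figure D4:**
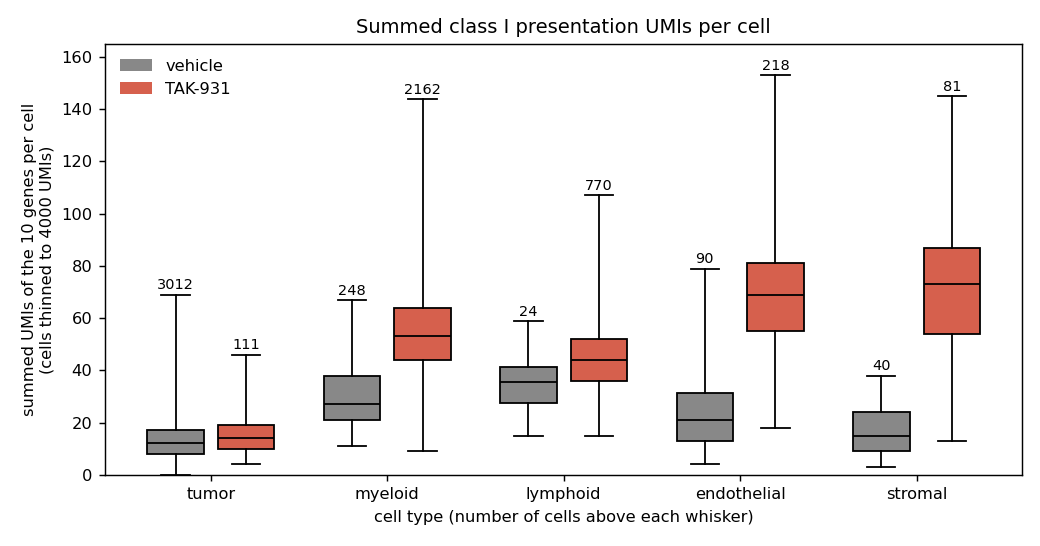
Summed UMIs of the 10 genes per cell, each cell thinned to 4000 UMIs, in the vehicle (grey) and TAK-931 (red) library. Boxes run between the quartiles with the median as a line, whiskers reach the lowest and highest cell, and numbers give cells. TAK-931 endothelial and stromal cells have medians of 69 and 73 UMIs against 21 and 15, and tumor cells 14 against 12.

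Groups inside the types were gated further, and the part of their mixture in the sums of a type was not tested. C1q-positive monocytes and macrophages (124 and 1076 cells) had a median ratio of the members of 0.77, C1q-negative ones (95 and 857 cells) 0.68 and dendritic cells (15 and 36 cells, 9 members counted) 0.54. Fibroblasts (17 and 40 cells) had a median of 1.56 and mural cells, the pericytes and smooth muscle of vessels (12 and 34 cells), 1.63, with 9 members counted in each. H2-D1 stood at 502 and 4929 CPM in fibroblasts (log2 ratio 3.30, 3.11 to 3.48) and at 2047 and 8011 CPM in mural cells (1.97, 1.84 to 2.10).

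The fibroblast ratio of H2-D1 was the highest of any member in the groups compared with at least 10 UMIs expected. Of the 252 vehicle UMIs behind it, 35.7% came from 1 cell. H2-K1 in fibroblasts stood at 383 and 2693 CPM (2.82, 2.61 to 3.03) and B2m at 952 and 6050.2 CPM (2.67, 2.53 to 2.80), while Psmb10 stood at 85.7 and 83.2 CPM (-0.04, -0.56 to 0.50). Lymphoid groups were not compared, since the vehicle library held 9 CD8 T, 1 CD4 T and 7 natural killer cells. In the TAK-931 library the members summed to 10066 CPM in 524 CD8 T, 12680.0 CPM in 92 CD4 T and 9598 CPM in 49 natural killer cells.

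**Figure D5:**
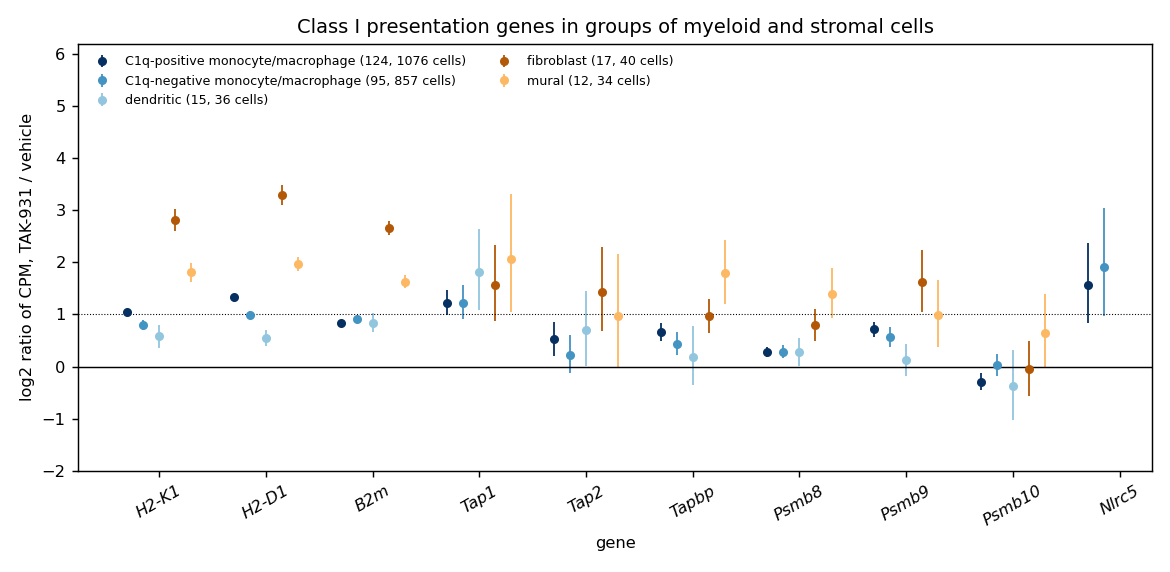
Log2 ratio of CPM, TAK-931 over vehicle, of the class I genes in groups gated inside the myeloid and stromal types, for genes with at least 10 UMIs expected in the smaller sum. Bars are exact conditional binomial 95% intervals, and the legend gives vehicle and TAK-931 cells. Ratios of H2-K1, H2-D1 and B2m are higher in fibroblasts (2.82, 3.30 and 2.67) than in mural cells (1.81, 1.97 and 1.63). Their intervals do not overlap, and the levels of these genes are lower in fibroblasts than in mural cells in both libraries.

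Over whole allografts, a level mixes each cell type's share of the UMIs with the level within that type. These shares are not shares of cells. Tumor cells were 87.5% of kept cells and 94.8% of their UMIs in the vehicle library, and 3.18% and 11.5% in the TAK-931 library. H2-K1 over all kept cells stood at 491 and 2189 CPM, a log2 ratio of 2.16. Keeping each type at its vehicle level and changing the shares of UMIs alone gave 1.31, which left 0.84 within types. For Tap1 the ratio was 2.82, of which 1.57 came with the shares. Nlrc5 differed from these in that 0.39 of 2.10 came with the shares and 1.71 was left within types. Psmb10, at 169 and 149 CPM, was the single member lower over the whole TAK-931 library (-0.18). Tumor cells gave between 85.8% and 95.9% of each member's UMIs in the vehicle library and between 1.61% and 9.15% in the TAK-931 library, so levels over whole allografts came from different cells.

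Other genes of the pathway were read from a list of 24 genes grouped by role. Among the further class I heavy chains, the median ratio was 2.07 in endothelial, 2.29 in stromal, 1.39 in myeloid, 0.72 in lymphoid and 0.22 in tumor cells. H2-T23, which encodes the nonclassical molecule Qa-1, stood at 51.03 and 465 CPM in endothelial cells (log2 ratio 3.19, 2.91 to 3.48), at 99.7 and 487 CPM in stromal cells (2.29) and at 245 and 577 CPM in myeloid cells (1.23). H2-Q4, H2-Q6, H2-Q7 and H2-T22 passed 1 in myeloid, endothelial and stromal cells, with ratios from 1.37 to 2.86. H2-T22 also passed 1 in lymphoid (1.58) and tumor cells (1.09), and H2-M3 in endothelial cells (1.08). H2-Q6 and H2-Q7 are near-identical copies, and how the authors' counting split their reads is uncertain.

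Among the genes listed for peptide loading and trimming, the constitutive proteasome and the proteasome activator, none passed a log2 ratio of 1 in any type. The constitutive proteasome subunits Psmb5, Psmb6 and Psmb7, the counterparts of the 3 immunoproteasome members, had median ratios of -0.07 in tumor, -0.33 in myeloid, -0.78 in lymphoid, -0.47 in endothelial and -0.44 in stromal cells, and Psmb5 passed -1 in stromal cells (204 and 98.7 CPM, -1.05, -1.32 to -0.78). The chaperones and trimming enzyme of peptide loading (Calr, Canx, Pdia3, Tapbpl and Erap1) had medians from -0.53 in myeloid to 0.12 in tumor cells, and none passed 1 or -1. Psme1 and Psme2, which encode a proteasome activator, had medians from -0.60 in lymphoid to 0.54 in endothelial cells.

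Of the regulators, Irf1, an interferon-induced factor that activates class I genes, passed 1 in stromal (36.2 and 404 CPM, log2 ratio 3.48, 3.01 to 4.00), endothelial (2.31), myeloid (1.65) and lymphoid cells (1.30, 0.17 to 2.76, on 6 vehicle UMIs) and had a ratio of 0.82 in tumor cells. Irf8 passed 1 in stromal (2.94, 1.98 to 4.09, on 9 vehicle UMIs), endothelial (1.95) and tumor cells, where it stood at 3.75 and 28.3 CPM (2.92, 2.69 to 3.15) beside the higher myeloid and lymphoid markers given above. Rfx5, a subunit of the factor that binds MHC promoters, passed 1 in myeloid (1.27, on 6 vehicle UMIs) and endothelial cells (1.19, on 8). In all, 2 of 24 counted genes of the list passed 1 in tumor cells (4.05% of all genes), 7 of 22 in myeloid (6.01%), 2 of 20 in lymphoid (8.31%), 9 of 24 in endothelial (7.76%) and 7 of 21 in stromal cells (11.0%), and 1 passed -1, in stromal cells (5.31%). The tumor and lymphoid counts were again near those of all genes.

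The genes whose level over the 10 points (5 types in 2 libraries) was most like the mean of the members were H2-T23 (Pearson r = 0.94), Supt5 (0.94), Igtp (0.93), H2-Q6 (0.91), Gm42418 (0.90), Rps27rt (0.90), Msl2 (0.89), AY036118 (0.88), Gna13 (0.88) and Vcpip1 (0.87), out of 5535 genes. These r values are a description, since the 10 points share 2 libraries and their depth. H2-D1 and Tap1 themselves reached 0.96, and Psmb10 reached 0.46, the lowest of the members that entered. Members are part of the mean by which genes were ordered, so their own r values are not comparable with those of other genes. Gm42418 and AY036118 lie over ribosomal RNA sequence and are known to collect its reads. Gm42418 stood at 4042 and 9944 CPM in endothelial, 2842 and 5906 CPM in stromal and 1762 and 2371 CPM in tumor cells, and its part in the members' differences was not tested.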

How the data were processed

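Droplet libraries of 3′ transcript ends were made by the authors, and the deposited matrices hold raw UMI counts per gene and barcode, unnormalized. The submitters' processing notes name Cell Ranger 6.0.0 and mm10, while the study's methods name a human build. The study's own limits were applied, which ask for over 2000 genes and under 15% of UMIs from mitochondria, and doublets were not removed. A marker was positive at 100 CPM or 10% of its 99th percentile, whichever was higher, and a cell took the type with most positive markers, at least 3 and 2 more than the next. Near this limit lay 52 vehicle and 2 TAK-931 tumor, 9 and 64 myeloid, 1 and 17 lymphoid, 3 and 12 endothelial and 3 and 6 stromal cells.

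UMIs were summed per type and library. Levels carry exact Poisson and ratios exact conditional binomial 95% intervals, and calls are log2 ratios past 1 or -1 where 10 UMIs were expected. No test was run with 1 library per group. Named genes were the 10 members, pathway genes past 1 or -1, and the 10 genes most like the members by Pearson r of log2(CPM + 1), among genes with at least 50 CPM in a point. Free RNA was estimated from markers of other types with at least 20 CPM. Alternatives were gene limits of over 1000 and 500, no mitochondrial limit, a stricter gate, Leiden clusters, mean cell CPM, median-ratio scaling, free RNA subtracted, thinning to 4000 UMIs, removal of the 5% of barcodes with most UMIs and no UMI minimum. Removal of kappa cells and a mitochondrial limit of 10% were added after seeing the data. 1 item of the pathway list is not reported here. Members and lists were chosen with earlier results of these data known. Steps were tested on simulated data. Tools were python 3.11.15, numpy 2.4.6, scipy 1.17.1, pandas 2.3.3, matplotlib 3.10.9, scanpy 1.11.5, anndata 0.12.19, scikit-learn 1.9.0, igraph 0.11.9 and leidenalg 0.10.2.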

Additional observations from a re-analysis of the deposited data

Results flagged for a closer look

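Psmb10 had log2 ratios, TAK-931 over vehicle, of -0.52 in tumor and -0.49 in lymphoid cells but 0.94 in endothelial and 0.49 in stromal cells, so the types went in opposite directions beyond counting error. With 1 library per group the difference between the types was not tested.

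Barcodes with 501 to 2000 genes, which the filter left out, also held the members above their level in the vehicle library. The 10 genes summed to 2195 CPM in 347 vehicle and 3947 CPM in 43 TAK-931 tumor barcodes, to 7797 and 13567 CPM in 114 and 401 myeloid barcodes, and to 10524 and 12169.7 CPM in 67 and 473 lymphoid barcodes. The log2 ratio of the sums was 0.85 (0.74 to 0.96) in these tumor barcodes, on medians of 3911 and 4263 UMIs per barcode. In the same barcodes the 15 myeloid markers together stood at 60.8 CPM in vehicle (7 of 15 with a UMI) and 224 CPM in TAK-931 (8 of 15, Csf1r and Adgre1 at 0 in both), the 12 lymphoid markers at 0.668 CPM (1 of 12) and 13.98 CPM (2 of 12, Cd3e and Trac at 0 in both), and the median mitochondrial share was 2.35% and 6.27%. The share of free RNA could not be estimated in the 43 TAK-931 barcodes, where most markers of other types held no UMI, and the part of RNA from other cells in this ratio was not tested.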

How the results depend on the processing

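The median log2 ratio of the members ranged over the alternatives from 0.06 to 0.28 in tumor, 0.67 to 0.83 in myeloid, 0.31 to 0.49 in lymphoid, 1.44 to 1.96 in endothelial and 1.68 to 2.09 in stromal cells. It moved beyond counting error in tumor cells to 0.13 with the stricter gate, 0.088 with Leiden clusters and 0.062 with free RNA subtracted, in myeloid cells to 0.83 with median-ratio scaling, and in endothelial cells to 1.60 with Leiden clusters, 1.56 with mean cell CPM, 1.96 with median-ratio scaling and 1.44 with thinning. That scaling removed a median ratio of -0.12 in lymphoid, -0.23 in endothelial and -0.23 in stromal cells, taken over the better counted genes (50 UMIs or more in both libraries), so ratios there came out higher by as much. No count of members past 1 or -1 moved by over 1.5 times. Where the main interval excluded 0, single genes turned in 3 cases: Tap2 (-0.18) and Psmb10 (0.29) in tumor cells without the barcodes with most UMIs, which left 30 of 111 TAK-931 tumor cells, and Psmb9 in lymphoid cells with thinning (-0.12), and the cause was not tested. Where it included 0, Tap1 (to -0.27), Psmb9 (to -0.10) and Nlrc5 (to -0.14) in tumor cells and Psmb10 in myeloid cells (to 0.02) also changed sign under at least 1 alternative. Members that crossed 1 under an alternative were Nlrc5 (0.79) and Tapbp (1.00) in lymphoid cells with thinning, H2-K1 in myeloid cells with median-ratio scaling (1.04), and Psmb10 in endothelial cells with the stricter gate (1.01), median-ratio scaling (1.17) and free RNA subtracted (1.15). Of single-gene values 525 stayed within and 82 moved past the counting interval of the main value. No paired analysis was possible because each group had 1 library. With 24 lymphoid and 40 stromal vehicle cells, counting intervals there were wide for low genes.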
